A study of Mus musculus with 8 samples.

Results

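The genes described here build the chondroitin sulfate proteoglycans of the spinal cord. They are 10 of the 21755 protein-coding genes on the autosomes and the X chromosome. They were picked by name for their part in this pathway, with earlier results of these data known. Of the 10 genes, 7 encode core proteins that carry the sugar chains (Acan, Bcan, Ncan, Vcan, Cspg4, Cspg5 and Ptprz1). The other 3 encode enzymes that make the chains (Xylt1, Chsy1 and Chst11). All 10 symbols were found in the annotation, and all 10 had enough coverage to be tested in every region examined.

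A chondroitin sulfate proteoglycan is a core protein whose serines bear long chains of alternating glucuronic acid and N-acetylgalactosamine, sulfated at set positions. In the central nervous system these molecules bind hyaluronan and tenascins to form the matrix around cells and the perineuronal nets around neurons, and after injury they build up in the glial scar, where the chains are known to hold back growing axons. SOX9 is a transcription factor of astrocytes and other glia.

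SOX9 was mapped by CUT&Tag, in which a transposase tethered to the protein through antibodies cuts the DNA near it into fragments that are then sequenced. Nuclei came from the spinal cord of wild-type C57BL/6 mice and were sorted on the DNA stain 7AAD. The uninjured group had no contusion, and the other group was taken 1 day after a thoracic contusion (1 d.p.i.), from the tissue around the centre of the injury. Each group had 1 library from a male (M) and 1 from a female (F), and each of these 4 samples also gave a control library that received the secondary antibody without the SOX9 antibody, for 8 libraries in 4 groups.

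The question put to these libraries was whether the coverage of SOX9 at the chondroitin sulfate genes differed between uninjured cords and cords at 1 d.p.i. Depth differed between the libraries. Among the SOX9 libraries, uninjured M had 1869806 fragments, uninjured F 7209462, injured M 2513522 and injured F 2381412, where injured stands for 1 d.p.i. The controls held 22707 (uninjured M), 46637 (uninjured F), 52684 (injured M) and 10892 (injured F) fragments

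Coverage is the number of fragments over each base, averaged over a region and divided by the mean of the same library, so that 1 is the level of the genome as a whole in that library. The promoter is the transcription start site (TSS, the 5′ end of the gene model) with 1 kb on each side, the gene body runs from the start to the end of the gene, and the flanks are the 20 kb before and the 20 kb after it. A single fragment adds 0.704 to a promoter in the uninjured M library, 0.183 in the uninjured F library, 0.524 in the 1 d.p.i. M library and 0.553 in the 1 d.p.i. F library. The 10 promoters together held 486 fragments over the 4 SOX9 libraries, so promoter values of single genes rest on few fragments. In the control libraries the same 10 promoters held 7 fragments in all, and a single fragment adds between 25 and 121 to a promoter there. Coordinates are those of GRCm38 (mm10).

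At the level of the whole group, SOX9 coverage over the 10 promoters was not separated between the conditions. Summed over the 10 promoters, it was 23.7 in the uninjured M library, 50.5 in the uninjured F library, 41.8 in the 1 d.p.i. M library and 45.7 in the 1 d.p.i. F library. The uninjured M library was the lowest and the uninjured F library the highest, with both injured libraries between them, so the groups overlapped. Uninjured cords had a mean of 37.1 ± 18.9 (SD, n = 2) and injured cords one of 43.7 ± 2.73 (SD, n = 2), which gives a ratio of 1.18. The ratio was 0.867 without the uninjured M library and 1.85 without the uninjured F library. The sums in the controls were 55.1 and 56.9 in uninjured cords and 79.6 and 107 at 1 d.p.i., values that rest on the 7 fragments above.

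Over all genes, the median promoter had a coverage of 2.76 in the uninjured M library, 4.57 in the uninjured F library, 3.55 in the 1 d.p.i. M library and 3.18 in the 1 d.p.i. F library, and promoters took up 7.77%, 14.1%, 10.7% and 8.95% of the coverage of these libraries. The uninjured M library was the lowest and the uninjured F library the highest over all promoters too, while the order of the 2 injured libraries was the other way round. Over all genes the median of the mean coverage of a promoter was 3.66, with quartiles of 0.930 and 8.37, against 1.49 for gene bodies and 1.42 for flanks.

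**Figure D1:**
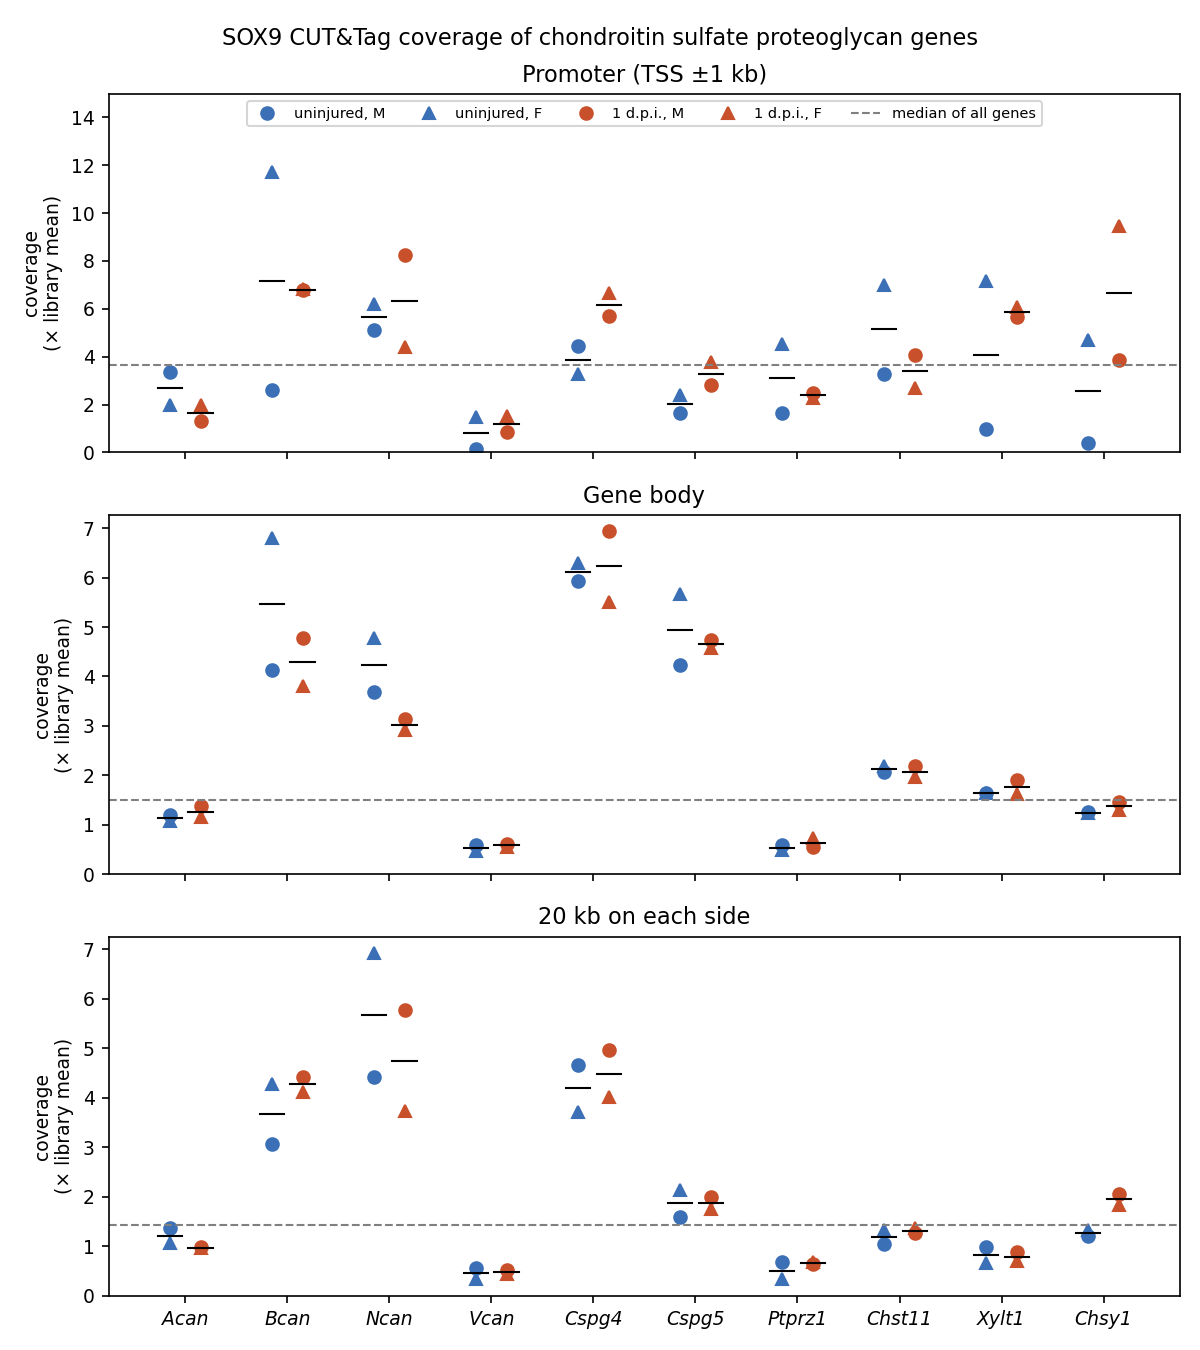
SOX9 coverage of the 10 genes at the promoter, in the gene body and in the flanks, as a multiple of the library mean, with 1 point for each of the 4 SOX9 libraries and a line at the mean of each group. Cspg4 has the highest gene body, and the uninjured points of Bcan, Xylt1 and Chsy1 lie far apart at the promoter.

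Brevican (Bcan), neurocan (Ncan), aggrecan (Acan) and versican (Vcan) are the lecticans, secreted core proteins that bind hyaluronan at one end and tenascins at the other. Bcan had the highest mean promoter coverage of the 10 genes. Its promoter (chr3:87999230-88001229, minus strand) had a coverage of 2.62 in the uninjured M library and 11.7 in the uninjured F library, and of 6.77 (M) and 6.82 (F) at 1 d.p.i. Both injured values lay between the uninjured ones, and 75 of the 107 SOX9 fragments at this promoter came from the uninjured F library. The mean of the 4 libraries, 6.98, lay at the 68.9th percentile of all promoters. Its gene body of 12700 bp had a coverage of 4.14 and 6.80 in the uninjured M and F libraries and of 4.77 and 3.81 at 1 d.p.i. The groups overlapped there as well, and the mean lay at the 87.8th percentile of gene bodies. Limma gave Bcan a log2 difference (1 d.p.i. minus uninjured) of 0.24 at the promoter, with a 95% interval from -1.05 to 1.54, and of -0.29 in the gene body, with an interval from -1.14 to 0.56. The sign turned at the promoter without the uninjured M library (-0.74) and in the gene body without the uninjured F library (0.04).

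Ncan, neurocan, is like brevican a lectican produced mainly in the nervous system. Its promoter (chr8:70119873-70121872, minus strand) had a coverage of 5.12 (uninjured M), 6.20 (uninjured F), 8.26 (injured M) and 4.41 (injured F). The highest and the lowest of these values were both from injured cords. Its gene body had a coverage of 3.69 and 4.78 in the uninjured M and F libraries and 3.13 and 2.91 in the injured ones. Here both injured libraries lay below both uninjured ones. The means of the gene body were 4.24 ± 0.768 (SD, n = 2) and 3.02 ± 0.153 (SD, n = 2). Limma put the log2 difference of the Ncan gene body at -0.42 (SE 0.25), with a 95% interval from -1.04 to 0.20, an unadjusted p of 0.146 and an adjusted p of 1.00. The flanks of Ncan were at the 93.2nd percentile of all flanks, and the upstream side, with a mean of 6.49, was covered more than the downstream side, with 3.92. The upstream side holds the starts of Rfxank, Nr2c2ap, Borcs8 and Mef2b, and the downstream side holds Hapln4, whose product is a link protein that ties lecticans to hyaluronan.

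Acan, aggrecan, is the main lectican of perineuronal nets and of cartilage. Its promoter (chr7:79052483-79054482, plus strand) had a coverage of 3.36 (uninjured M), 1.99 (uninjured F), 1.31 (injured M) and 1.96 (injured F). Both injured values were below both uninjured ones, though the F values differ by less than a single fragment adds. The flanks had the same order, with 1.36 and 1.06 in the uninjured M and F libraries and 0.978 and 0.960 in the injured ones. In the gene body the values were 1.2 and 1.07 in the uninjured M and F libraries and 1.38 and 1.14 in the injured ones. The groups overlapped in the gene body, and its fitted log2 difference was 0.11, against -0.55 at the promoter and -0.21 in the flanks. The 95% intervals of all 3 differences included 0.

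Vcan, versican, is the lectican found most widely outside the nervous system. Its promoter (chr13:89741509-89743508, minus strand) had the lowest coverage of the 10, with 0.154 (uninjured M), 1.5 (uninjured F), 0.838 (injured M) and 1.52 (injured F). The M libraries were below the F libraries in both conditions, and the uninjured M value rests on part of a single fragment. The coverage was higher at another annotated start of the gene, 2112 bp further into the gene at position 89740397, where the 4 values were 3.60 and 4.40 in uninjured cords and 7.55 and 3.56 at 1 d.p.i. These values overlapped between the groups and had a mean of 4.78, against 1.00 at the 5′ end. The gene body of Vcan was among the least covered, at the 20.5th percentile, with 0.579 and 0.469 in the uninjured M and F libraries and 0.617 and 0.549 in the injured ones. The log2 difference was 0.52 at the promoter, with a 95% interval from -1.06 to 2.1.

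Cspg4 (NG2), Cspg5 (neuroglycan C) and Ptprz1 span the membrane. Cspg4 is the carrier that marks oligodendrocyte progenitors and pericytes. Its promoter (chr9:56864033-56866032, plus strand) had a coverage of 4.47 (uninjured M), 3.27 (uninjured F), 5.70 (injured M) and 6.66 (injured F). The injured libraries were above the uninjured ones without overlap. Over 40 fragments in all, the uninjured mean was 3.87 ± 0.843 (SD, n = 2) against 6.18 ± 0.675 (SD, n = 2) for the injured cords. Limma gave a log2 difference of 0.62 (SE 0.67) with a 95% interval from -0.70 to 1.94, an unadjusted p of 0.357 and an adjusted p of 1.00. Cspg4 had the highest gene body of the 10, at the 92.1st percentile of all genes, with 5.94 and 6.30 in the uninjured M and F libraries and 6.94 and 5.52 in the injured ones. The injured libraries held both the highest and the lowest of these, and the log2 difference was 0.02, with a 95% interval from -0.74 to 0.78. Its flanks were uneven, with a mean of 5.75 downstream of the gene and 2.94 upstream.

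Cspg5 had a promoter coverage (chr9:110242783-110244782, plus strand) of 1.63 (uninjured M), 2.40 (uninjured F), 2.80 (injured M) and 3.77 (injured F). Both injured libraries were above both uninjured ones, from 2 (uninjured M), 12 (uninjured F), 8 (injured M) and 7 (injured F) fragments. The uninjured F and injured M values differ by less than a single fragment adds in the injured M library. The log2 difference was 0.60 with a 95% interval from -0.83 to 2.02. With TSS ± 500 bp the difference was -1.22. As with Vcan, the highest annotated start was not the 5′ end. At a start 2282 bp further in, at position 110246065, the coverage was 10.4 and 17.2 in the uninjured M and F libraries and 15.8 and 16.1 in the injured ones. The groups overlapped at that start, where both injured libraries lay between the uninjured ones. Its mean of 14.9 was at the 89.1st percentile of the highest starts of all genes, whereas the mean of 2.65 at the 5′ end was at the 43.0th percentile of promoters. The gene body had a mean of 4.80, at the 87.5th percentile, and values between 4.23 and 5.66 that overlapped between the groups.

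Ptprz1 is a receptor-type tyrosine phosphatase whose secreted form is phosphacan. Its promoter (chr6:22874502-22876501, plus strand) had a coverage of 1.66 (uninjured M), 4.53 (uninjured F), 2.5 (injured M) and 2.27 (injured F). Both injured values lay between the uninjured ones. The gene body, 177415 bp long, had a mean of 0.585, below the genome level and at the 21.6th percentile. The log2 difference of Ptprz1 was -0.19 at the promoter, 0.14 in the gene body and 0.22 in the flanks, and the 95% intervals included 0 in each. Without the uninjured F library the sign turned at the promoter (0.42) and in the flanks (-0.03).

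Of the chain enzymes, Xylt1 transfers the first sugar, xylose, to the core protein. Its promoter (chr7:117379979-117381978, plus strand) had a coverage of 0.982 and 7.17 in the uninjured M and F libraries and 5.67 and 6.09 in the injured ones. The uninjured M library, with 2 fragments, stood apart from the other 3, and the groups overlapped because the uninjured F library was the highest. The log2 difference was 0.92 (SE 0.69), with a 95% interval from -0.42 to 2.26. Without the uninjured M library it was -0.27, and without the uninjured F library it was 2.1. Of the 7 control fragments at the 10 promoters, 4 fell on Xylt1, 3 in the injured M control and 1 in the injured F control, with a pooled control coverage of 41.6. The gene body, the longest of the 10 at 292602 bp, had values between 1.62 and 1.90 over the 4 libraries, and its log2 difference was 0.07.

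Chsy1 is a chondroitin synthase that lengthens the chain by adding both of its sugars. Its promoter (chr7:66108515-66110514, plus strand) had a coverage of 0.402 (uninjured M), 4.70 (uninjured F), 3.88 (injured M) and 9.45 (injured F). The injured library was above the uninjured one of the same sex in both sexes, while the uninjured F library was above the injured M library, so the groups overlapped. The fragments behind these values numbered 2, 29, 10 and 14. Chsy1 had the largest promoter difference of the 10, a log2 value of 1.61 (SE 0.70) with a 95% interval from 0.23 to 2.99. That SE came from the trend over all promoters. It does not hold the gap between the uninjured libraries of Chsy1, 0.402 and 4.70. Limma gave it an unadjusted p of 0.0224 and an adjusted p of 1.00, so it did not pass the test over all genes. Without the uninjured M library the log2 difference was 0.34, and without the uninjured F library it was 2.87. In the controls 0 fragments fell on this promoter.

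Chsy1 also had the largest difference in the flanks. Their coverage was 1.2 and 1.32 in the uninjured M and F libraries and 2.06 and 1.83 in the injured ones. There was no overlap, with the injured pair higher. From 320 fragments, the uninjured mean was 1.26 ± 0.0864 (SD, n = 2) and the injured mean 1.94 ± 0.159 (SD, n = 2), for a ratio of 1.55. The controls held 10 fragments in these flanks, 0 (uninjured M), 2 (uninjured F), 7 (injured M) and 1 (injured F), and their pooled coverage of 5.79 was above both SOX9 means. All 10 control fragments lay downstream of the gene and 0 upstream. The difference was on both sides of the gene, with means of 1.41 and 2.03 upstream and 1.1 and 1.86 downstream. Limma gave a log2 difference of 0.47 (SE 0.20) for the flanks, with a 95% interval from 0.08 to 0.87, an unadjusted p of 0.0175 and an adjusted p of 1.00. Over the 19 alternatives the flank difference stayed between 0.21 and 0.74 and did not pass the adjusted threshold. In the gene body both injured libraries were again above both uninjured ones, with 1.25 (uninjured M), 1.23 (uninjured F), 1.45 (injured M) and 1.30 (injured F), and the log2 difference was 0.11.

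Chst11 adds sulfate at the 4 position of N-acetylgalactosamine in the chain. Its promoter (chr10:82984498-82986497, plus strand) had a coverage of 3.28 and 7.01 in the uninjured M and F libraries and 4.09 and 2.71 in the injured ones. The highest value was from an uninjured library and the lowest from an injured one, with the M libraries between them, and the log2 difference was -0.47 with a 95% interval from -1.82 to 0.87. Without the uninjured F library the difference was 0.02. In the gene body of 210403 bp the 4 libraries lay within 1.95 and 2.19, and the log2 difference of -0.03 had a 95% interval from -0.47 to 0.41.

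**Figure D2:**
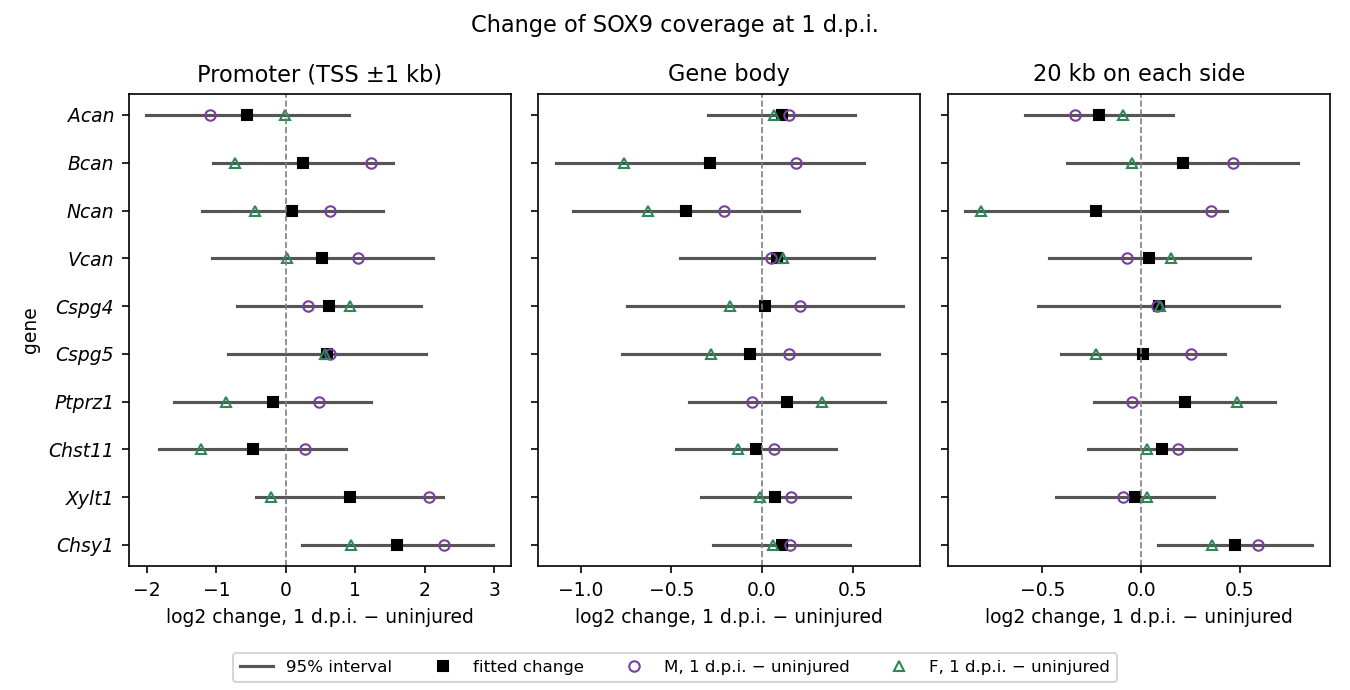
Difference of log2(coverage + 0.5) between 1 d.p.i. and uninjured cords for the 10 genes in each region, with squares and lines for limma's estimate and its 95% interval, circles for the M libraries and triangles for the F libraries. The intervals of the Chsy1 promoter (0.23 to 2.99) and the Chsy1 flanks (0.08 to 0.87) exclude 0 before adjustment, and the other intervals include it. Promoter and flank intervals rest on the trend over all genes and not on the spread of the single gene.

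None of the 10 genes passed the test in any region. At the promoter, limma called 0 of the 10 members at an adjusted p under 0.05. Over all 19530 promoters tested it called 1 higher (0.00512%) and 0 lower (0%) at 1 d.p.i. At an unadjusted p under 0.05 there was 1 member, Chsy1, against 391 of all promoters (2%). Both injured libraries were above both uninjured ones in 2 members, Cspg4 and Cspg5, against 8.96% of all promoters, and below them in 1 member, Acan, against 15%. These shares are those of a list of 10 genes, in which 1 gene makes up 10%.

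In the gene body limma also called 0 of the 10 members, against 0 higher (0%) and 0 lower (0%) among 19725 gene bodies. The count over all gene bodies rose with sex as a block, as given below, while that of the members stayed at 0. At an unadjusted p under 0.05 there were 0 members and 771 gene bodies (3.91%). The groups did not overlap in Chsy1, above, and in Ncan, below, against 13.5% and 15.8% of all gene bodies. In the flanks limma called 0 members, against 5 higher (0.0247%) and 0 lower (0%) among 20248 genes. There, 1 member, Chsy1, and 525 of all genes (2.59%) had an unadjusted p under 0.05. The flanks of Chsy1 were above and those of Acan below in both injured libraries, against 12.2% and 13.8% of all genes. With 2 libraries a group, limma took the spread at promoters and in flanks from the trend over all genes. The intervals and p-values there do not hold the spread between a gene's own libraries. In the gene body limma used both the trend and the gene's own spread.

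The sign of the fitted promoter difference was positive in 7 of the 10 members and in 45.1% of all promoters tested. The members' median log2 difference was 0.38, against -0.06 over all promoters. The count of positive members was 3 without the uninjured M library and 9 without the uninjured F library, and it was 7 under each of 3 other scalings, 5 with TSS ± 500 bp and 8 at the highest annotated start. In the gene body 6 members were positive, with a median of 0.05, against 46.4% of all gene bodies tested and a median of -0.02. In the flanks 7 were positive, with a median of 0.06, against 44.2% of all flanks tested and a median of -0.03. Vcan, Cspg4 and Chsy1 were positive in all 3 regions and 0 members were negative in all 3. Of these only Chsy1 kept a positive sign in all 3 regions under every alternative. The promoter shares 1 kb with the gene body and 1 kb with the flanks, so the 3 signs are not separate measures. The share of all genes with 1 sign in all 3 regions was not counted. For Vcan the sign turned in 2 of 19 promoter alternatives (to -0.28 without the uninjured M library), 1 of 16 in the gene body and 3 of 18 in the flanks (to -0.22 with 10 kb on each side). For Cspg4 it turned in 4 of 17 in the gene body (to -0.14 without the injured M library) and 3 of 19 in the flanks (to -0.06 without the uninjured F library). In bulk nuclei, a different share of SOX9-positive cells and a different SOX9 coverage per cell cannot be told apart.

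The loci of the 10 genes, taken as the gene with its flanks, were then divided into 1-kb tiles. Of 1396 tiles, 23 (1.65%) were at 5 times the library mean or more in all 4 SOX9 libraries, against 22063 of 2633767 tiles of the genome (0.838%). With 1 library fewer to pass, the share was 2.58% without the uninjured M library, against 1.2% of all tiles, and 2.79% without the injured F library, against 1.1% of all tiles. These tiles were unevenly shared among the genes. The Cspg4 locus held 10 of its 75 tiles (13.3%), Ncan 5 of 68, Bcan 3 of 54, Cspg5 2 of 60, Xylt1 2 of 334 and Chst11 1 of 251. Acan, Vcan, Ptprz1 and Chsy1 held 0. Of the 23 tiles, 6 lay within 1 kb of a coding start, 5 on other exons, 7 in introns and 5 outside coding genes.

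The most covered tile of all 10 loci lay past the end of Cspg4, at chr9:56901001-56902000, 1130 bp beyond the gene and outside any annotated gene. Its coverage was 26.7 (uninjured M), 28.8 (uninjured F), 48.0 (injured M) and 20.6 (injured F). Both extremes were injured libraries, so the groups overlapped. The mean of 31.0 was at the 99.9th percentile of all tiles. The log2 difference was 0.18 (SE 0.63), and 0 fragments of the 4 controls fell on it. Repeats made up 37.2% of this tile. Inside Cspg4, 3 neighbouring intronic tiles from 56880001 to 56883000 were also high, the middle one with 12.7 and 23.2 in the uninjured M and F libraries and 17.7 and 12.8 in the injured ones.

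At the Ncan locus the most covered tile, chr8:70139001-70140000, was not at Ncan but at the clustered starts of Rfxank, Borcs8 and Mef2b. It had 12.9 (uninjured M), 42.1 (uninjured F), 31.8 (injured M) and 12.5 (injured F), so that the F libraries held the highest and the lowest value. A tile between genes, chr8:70129001-70130000, had 7.92 and 13.1 in the uninjured M and F libraries and 24.4 and 11.2 in the injured ones. The tile at the Ncan start itself, chr8:70120001-70121000, had values between 5.24 and 8.48. Here too the groups overlapped.

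**Figure D3:**
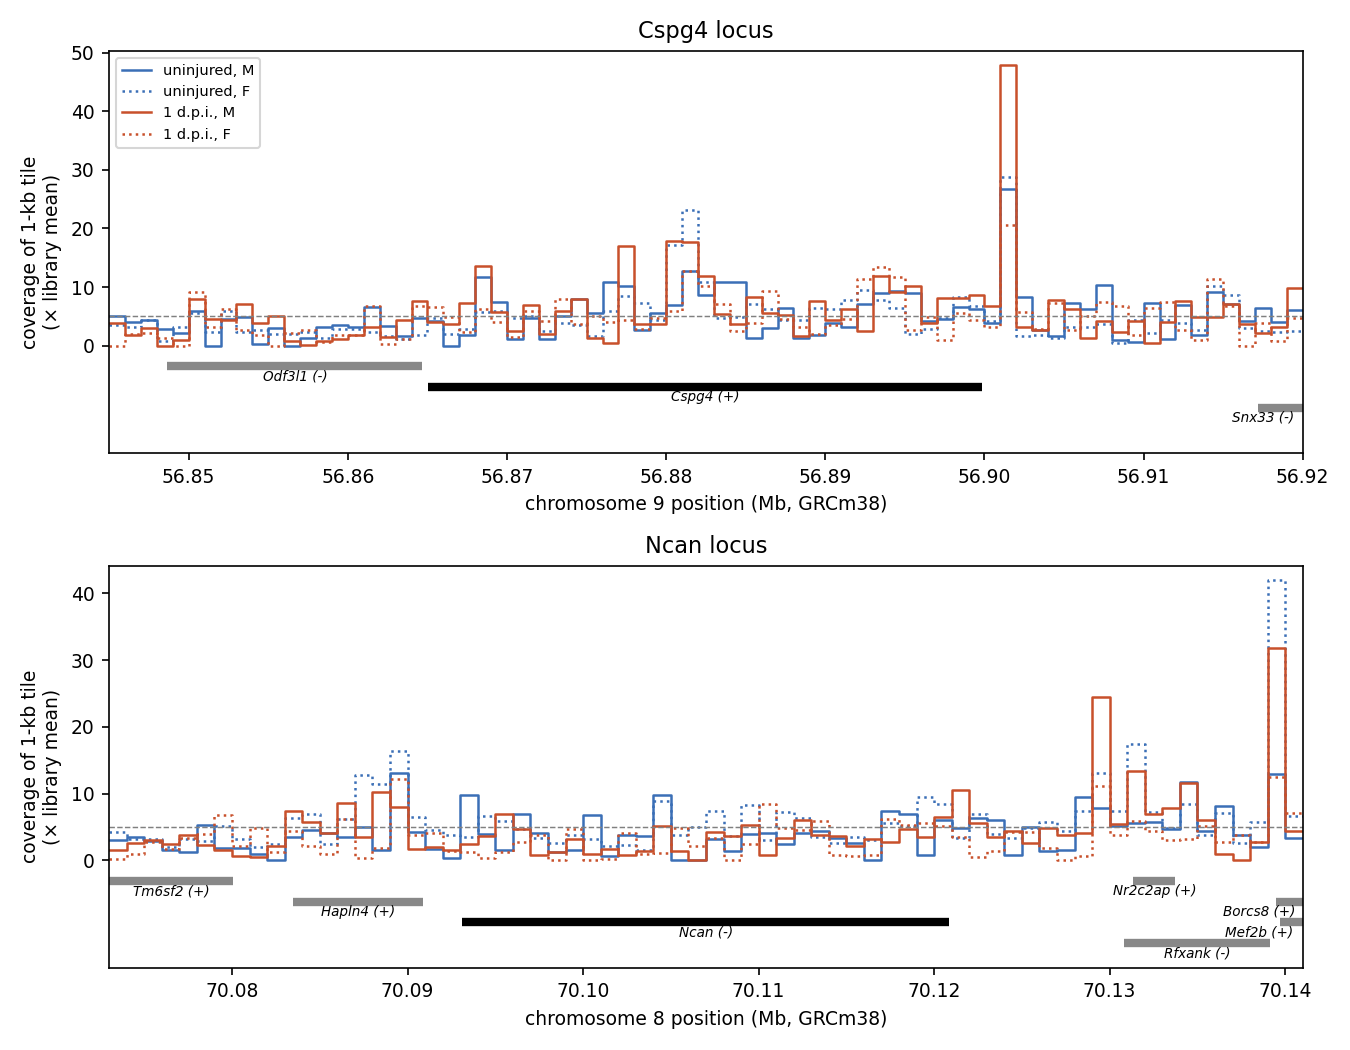
SOX9 coverage in 1-kb tiles along the Cspg4 and Ncan loci (GRCm38, gene and 20 kb on each side), as a multiple of the library mean, with 1 line for each of the 4 SOX9 libraries and a dashed line at 5. Bars mark protein-coding genes with their strand, the member in black; the highest tile of the Cspg4 locus has a mean of 31.0 and that of the Ncan locus one of 24.8.

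In the other carriers the most covered tile outside TSS ± 1 kb lay inside the gene. In Cspg5 it was the tile of the second start, chr9:110246001-110247000, with a mean of 17.5. In Bcan it was an exonic tile, chr3:87990001-87991000, with 5.57 (uninjured M), 9.42 (uninjured F), 14.8 (injured M) and 8.88 (injured F). The Vcan tile, chr13:89740001-89741000, was at that gene's more covered start and had a mean of 4.28. In Acan and Ptprz1 these tiles were intronic and had means of 3.4 and 2.61. Nearer the start, the tile chr3:88000001-88001000 of Bcan had a mean of 9.67, against 9.66 for the exonic one, and the tile chr6:22876001-22877000 of Ptprz1 had a mean of 4.71.

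The enzyme genes had their most covered tiles, again outside TSS ± 1 kb, in introns. In Xylt1 the tile chr7:117436001-117437000 had 10.2 and 16 in the uninjured M and F libraries and 17.6 and 13.4 in the injured ones. Its uninjured M library was the lowest, and the groups overlapped. In Chst11 the tile chr10:83140001-83141000 had 11.6 (uninjured M), 11.0 (uninjured F), 9.94 (injured M) and 3.77 (injured F). There the injured pair was below the uninjured pair. The log2 difference was -0.82 (SE 0.62), and limma gave an unadjusted p of 0.183 and an adjusted p of 0.989. In Chsy1 the tile chr7:66145001-66146000 had 19.5 and 5.38 in the uninjured M and F libraries and 24.2 and 2.58 in the injured ones. Both M libraries were above both F libraries in that tile, in each condition.

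Of the 1396 tiles, 814 had a mean coverage of at least 1 and were tested among 771595 tiles of the genome. Limma called 0 of the 814, against 37 tiles higher (0.0048%) and 4 lower (0.000518%) over the genome, and 26 of them had an unadjusted p under 0.05, against 3.51% of all tiles. Both injured libraries were above both uninjured ones in 130 of the 814 tiles and below them in 131, against 16.8% and 15.7% of all tiles tested. By gene, tiles above and below numbered 8 and 4 in Acan, 9 and 11 in Bcan, 4 and 16 in Ncan, 3 and 0 in Vcan, 10 and 10 in Cspg4, 6 and 12 in Cspg5 and 9 and 3 in Ptprz1. In the enzyme genes they numbered 27 and 36 in Chst11, 37 and 32 in Xylt1 and 17 and 7 in Chsy1. Tiles tested numbered 54 in Acan, 52 in Bcan, 68 in Ncan, 17 in Vcan, 75 in Cspg4, 50 in Cspg5 and 32 in Ptprz1. In the enzyme genes 198 were tested in Chst11, 206 in Xylt1 and 62 in Chsy1.

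Sequence was read from the reference at the tiles that stood out, as the 300 bases of highest coverage in each, on the plus strand. The letters searched on both strands were AACAATG and AACAAAG, which match the motif bound by SOX proteins, and TGACTCA, which matches the AP-1 motif. Either SOX word was present in 48.2% of promoters (TSS ± 1 kb) and in 39.0% of 1-kb tiles, and TGACTCA in 24.3% and 14.3%. Of the 23 high tiles, 2 held a SOX word and 4 held TGACTCA. The Ncan stretch (chr8:70129535-70129834, GRCm38, plus strand, outside coding genes) and the Xylt1 stretch (chr7:117462478-117462777, plus strand, intronic) are shown because they are in the 2 high tiles with a SOX word, given in capitals.
Ncan high tile 70129001: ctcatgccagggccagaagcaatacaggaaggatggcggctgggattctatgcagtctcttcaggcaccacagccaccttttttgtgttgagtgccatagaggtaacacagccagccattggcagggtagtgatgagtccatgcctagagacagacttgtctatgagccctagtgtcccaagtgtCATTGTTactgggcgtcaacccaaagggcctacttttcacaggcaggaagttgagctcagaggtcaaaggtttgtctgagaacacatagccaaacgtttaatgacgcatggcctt
Xylt1 high tile 117462001: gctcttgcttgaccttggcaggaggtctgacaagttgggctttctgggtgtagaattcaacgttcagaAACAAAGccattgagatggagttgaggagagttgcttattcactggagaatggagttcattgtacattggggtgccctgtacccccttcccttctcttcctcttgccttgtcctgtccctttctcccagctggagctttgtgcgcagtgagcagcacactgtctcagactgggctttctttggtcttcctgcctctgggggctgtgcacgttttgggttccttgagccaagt

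Over these 300 bases the Ncan stretch had a coverage of 10.3 and 19.3 in the uninjured M and F libraries and 47.9 and 11.4 in the injured ones. The Xylt1 stretch had 27.4 (uninjured M), 21.8 (uninjured F), 34.7 (injured M) and 8.28 (injured F). In both stretches the injured M library was the highest, and the groups overlapped.

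The intronic stretch of Chsy1 (chr7:66145212-66145511, GRCm38, plus strand) is shown because its libraries split by sex. Its coverage was 40.5 and 5.42 in the uninjured M and F libraries and 35.4 and 3.41 in the injured ones. The sequence is a tandem repeat with a period of 34 bp, and 97.0% of its bases equal the base 34 bp further on. How the number of copies of this repeat in these animals bears on the coverage was not tested.
Chsy1 tile: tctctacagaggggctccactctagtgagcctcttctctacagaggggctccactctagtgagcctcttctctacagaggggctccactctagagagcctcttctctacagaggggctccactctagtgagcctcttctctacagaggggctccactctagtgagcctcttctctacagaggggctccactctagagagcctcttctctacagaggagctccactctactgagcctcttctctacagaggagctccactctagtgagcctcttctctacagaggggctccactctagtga

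At the promoters, AACAAAG was present in 5 of the 10 genes, once in Acan, Ptprz1 and Chst11 and at 2 places in Ncan and Chsy1, and AACAATG in 0. The share over all promoters was 35.1% for the first word and 21.7% for the second. The AP-1 word was present at 2 places in the promoter of Xylt1 and in 0 of the other promoters. That pair lies upstream of the gene at chr7:117380200-117380295 (GRCm38, plus strand, outside coding exons), with the middles of the words at -756 and -707 bp from the start. It is shown, with the words in capitals on either strand, beside the 300 bases before the start of Chsy1 (chr7:66109215-66109514, plus strand), the gene with the largest promoter difference. These 300 bases hold none of the words, and the 2 AACAAAG words of that promoter lie downstream of the start.
Xylt1 AP-1 pair: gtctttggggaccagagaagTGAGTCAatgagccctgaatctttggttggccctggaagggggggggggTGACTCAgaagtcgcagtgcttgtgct
Chsy1 upstream of start: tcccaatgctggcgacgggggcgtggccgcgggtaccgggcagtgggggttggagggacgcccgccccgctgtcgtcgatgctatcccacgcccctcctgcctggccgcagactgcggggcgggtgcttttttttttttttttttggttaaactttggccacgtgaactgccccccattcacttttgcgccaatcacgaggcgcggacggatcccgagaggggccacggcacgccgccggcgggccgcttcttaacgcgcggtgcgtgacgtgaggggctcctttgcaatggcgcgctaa

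The coverage of the Xylt1 pair was 0 (uninjured M), 3.26 (uninjured F), 2.17 (injured M) and 12.5 (injured F). The Chsy1 stretch had 1.60 and 8.20 in the uninjured M and F libraries and 10.7 and 16.4 in the injured ones. In the Chsy1 stretch both injured libraries were above both uninjured ones, and in the Xylt1 pair the groups overlapped.

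The order of the loci followed base composition. Over the 21755 genes, the log2 coverage of a locus correlated with its GC content with a Pearson r of 0.80 and a Spearman rho of 0.80, as a description of genes that share libraries and are not independent. Over the 10 members r was 0.90 and rho 0.87. The loci of Bcan, Cspg4 and Ncan were at the 96.0th, 94.8th and 90.5th percentiles of GC content and at the 88.5th, 93.1st and 90.3rd percentiles of coverage. Vcan and Ptprz1 were at the 9.74th and 10.2nd percentiles of GC content and at the 20.0th and 22.1st percentiles of coverage. Acan stood off this order, at the 78.9th percentile of GC content and the 41.0th of coverage. At promoters, coverage correlated with the ratio of observed to expected CpG dinucleotides over all genes (r 0.72), and in the 10 members r was 0.08.

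**Figure D4:**
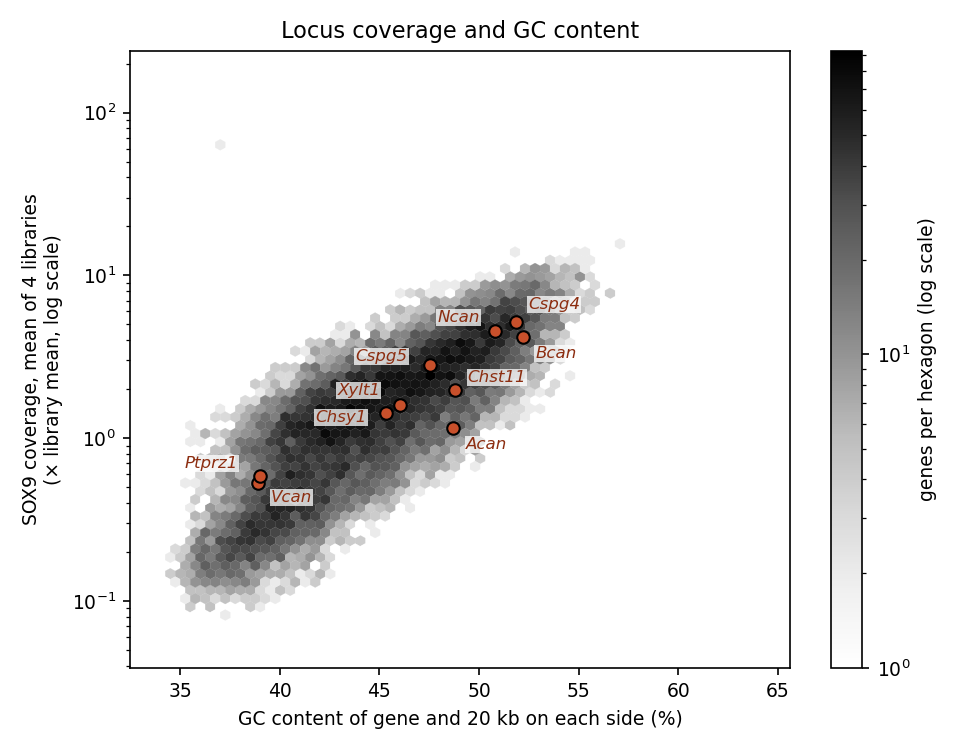
SOX9 coverage of each locus (mean of the 4 SOX9 libraries, log axis, as a multiple of the library mean) against its GC content in percent, for 21755 protein-coding genes as shaded hexagons and the 10 genes as labelled points. Bcan, Cspg4 and Ncan lie at the upper right and Vcan and Ptprz1 at the lower left, and Acan lies below most genes of its GC content.

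The SOX9 libraries were set against the secondary-only controls over whole loci, since the controls were too shallow for smaller regions. The 10 loci held between 2 and 30 control fragments each. Limma called 1 of the 10 members, Vcan, higher in the SOX9 libraries and 0 lower, against 1638 of 20230 genes higher (8.1%) and 5 lower (0.0247%). The Vcan locus had 0.575 (uninjured M), 0.430 (uninjured F), 0.584 (injured M) and 0.515 (injured F) in the SOX9 libraries. In the controls it had 0 in 3 libraries and 0.275 in the 1 d.p.i. M library, from 2 fragments. The call (log2 difference 0.88, adjusted p 0.0319 by limma) thus sets the SOX9 libraries against counts of 0, and it does not show that Vcan is above the controls. It was lost without the uninjured M samples (adjusted p 0.205), without the uninjured F samples (0.134), without the 1 d.p.i. F samples (0.146) and with the SOX9 libraries thinned to the depth of their controls (0.889), and the adjusted p ranged from 0.0315 to 0.889 over 8 alternatives.

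At this depth limma called no member but Vcan. The ranges of the SOX9 libraries and the controls did not overlap in Vcan and Chsy1, where the controls held 2 and 17 fragments. Chsy1 had the lowest estimate, a log2 difference of -0.82 (SE 0.42), with an adjusted p of 0.402 by limma. Its controls had 2.45 and 2.87 in uninjured M and F and 5.32 and 1.72 in 1 d.p.i. M and F. All of these were above the SOX9 libraries, which had 1.23 to 1.68. Cspg4, the most covered locus, had 4.71 to 5.89 in the SOX9 libraries and 2.77 to 7.11 in the controls. The ranges overlapped for Cspg4, as for the most covered carriers Bcan and Ncan, whose control libraries ran from 0 to 8.08 and from 0 to 7.94. Of the isolated fragments of a control, 82.4% to 93.6% coincided exactly with one found among the SOX9 fragments, so the controls are not independent of the SOX9 libraries.

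The rest of the pathway was taken as 83 genes in 6 lists, of which 81 could be tested at the promoter. Limma called 0 of them in any region. At an unadjusted p under 0.05 there was 1 of the 81 at the promoter, Chst7, against 2% of all promoters, 1 of 83 in the gene body, against 3.91%, and 6 of 83 in the flanks, against 2.59%. Both injured libraries were above both uninjured ones in 5 of them and below in 11, against 8.96% and 15% of all promoters. The 24 other synthesis genes, from linker enzymes to sulfotransferases, had 12 positive and 12 negative log2 differences at the promoter. B3galt6, an enzyme of the linker between protein and chain, had the highest promoter coverage of all 83, with 17.1 and 39.8 in the uninjured M and F libraries and 25.3 and 17.9 in the injured ones. As at Bcan, the uninjured libraries were the lowest and the highest. Chst7, a 6-sulfotransferase, had 2.28 (uninjured M), 1.58 (uninjured F), 0.0700 (injured M) and 0.471 (injured F). Each injured value was below what a single fragment adds to a promoter in that library. Both injured values of Chst7 were below both uninjured ones, and limma gave a log2 difference of -1.69 (SE 0.81), an unadjusted p of 0.0373 and an adjusted p of 1.00.

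Among the 10 link and matrix partners (link proteins, tenascins, hyaluronan synthases and Cd44), 7 were positive at the promoter, with a median log2 difference of 0.30, and in 0 of them did the groups stand apart. Among 9 other chondroitin or dermatan sulfate proteoglycans tested, the median was -0.06 and 4 were positive. Srgn, serglycin of blood cell granules, had 2.93 and 1.19 in the uninjured M and F libraries and 4.02 and 3.92 in the injured ones. Col9a1, a collagen IX gene, had 1.62 (uninjured M), 0.609 (uninjured F), 0.240 (injured M) and 0 (injured F). The groups did not overlap in either gene, and limma gave log2 differences of 0.89 (SE 0.72) and -1.33 (SE 0.85), both with an adjusted p of 1.00. At its highest annotated start Col9a1 had a difference of 0.07. Its injured values at the promoter were each below what a single fragment adds in that library.

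The 7 receptors and ligands, such as Ptprs, Rtn4r, Ptn and Mdk, had a median log2 difference of 0.03. Lrp1, an endocytic receptor, had the highest promoter of this list, with 13.3 and 24.3 in the uninjured M and F libraries and 36.3 and 17.1 in the injured ones. Among the 13 proteases and chain-degrading enzymes tested the median was -0.03. Mmp9, a gelatinase, had 0.506 (uninjured M), 2.36 (uninjured F), 2.9 (injured M) and 2.59 (injured F). The Lrp1 groups overlapped, and in Mmp9 both injured libraries were above, with a log2 difference of 0.93 (SE 0.75) that turned to -0.18 with TSS ± 500 bp and -0.09 with TSS ± 2 kb. The 18 heparan sulfate genes, the other branch that starts from the same linker, had a median of -0.02 and 9 positive values. Hs2st1, their most covered promoter, had 17.7 and 33.8 in the uninjured M and F libraries and 20.5 and 19.7 in the injured ones.

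The 3 genes whose 12 log2 values (promoter, gene body and flanks in the 4 SOX9 libraries) lay closest to those of Bcan were Slc12a5, Sema3f and Stard3, at Euclidean distances of 0.718, 0.741 and 0.837. Their promoter means were 6.42, 5.84 and 8.03, against 6.98 for Bcan.

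Promoter coverage of cell type markers was read from the same libraries. The 8 astrocyte markers summed to 29.5 (uninjured M), 31.1 (uninjured F), 40.2 (injured M) and 22.6 (injured F), with Slc1a2 the highest. The 7 markers of oligodendrocyte progenitors, among them Cspg4 itself, summed to 77.0 and 89.1 in the uninjured M and F libraries and 81.5 and 55.3 in the injured ones, with Sox10 the highest. The 6 oligodendrocyte markers, led by Cnp, summed to 64.5 (uninjured M), 101 (uninjured F), 90.6 (injured M) and 73.4 (injured F). The groups overlapped in each of these 3 sums. The medians of the first 2 lists did not overlap, with 3.0 and 3.09 in uninjured M and F against 2.1 and 1.24 in injured M and F for astrocytes, and 12.7 and 10.6 against 7.45 and 6.66 for oligodendrocyte progenitors.

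The 7 neuronal markers, led by Tubb3, summed to 46.6 and 65.2 in the uninjured M and F libraries and 44.5 and 36.1 in the injured ones. Both injured sums were below both uninjured ones, as were the medians, with 6.57 and 9.15 in uninjured M and F against 3.33 and 3.50. Taken singly, 3 of the 7 genes were below and 1 was above, against 15% and 8.96% of all promoters. Genes below and above numbered 3 and 1 of the 8 astrocyte markers and 2 and 2 of the 7 oligodendrocyte progenitor markers. They numbered 1 and 0 of the 6 oligodendrocyte markers and 2 and 0 of the 5 ependymal ones. The 5 ependymal markers, led by Foxj1, summed to 18.2 (uninjured M), 38.7 (uninjured F), 25.5 (injured M) and 21.9 (injured F), and their medians were 2.34 and 4.61 against 2.23 and 1.31. The 6 endothelial and mural markers, led by Pdgfrb, summed to 6.71 (uninjured M), 11.8 (uninjured F), 8.19 (injured M) and 9.60 (injured F). In that list Rgs5 was near 0, with a mean of 0.204. The 5 neutrophil markers, led by Csf3r, summed to 4.15 and 3.69 in the uninjured M and F libraries and 3.06 and 4.41 in the injured ones, and S100a9 was at 0 in all 4 libraries. The groups overlapped in each of these sums but the neuronal one. A further marker list was read and its values are not given here. The part of these cell types in the results above was not tested.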

How the data were processed

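The deposited values are coverage, which the authors wrote for each library as whole numbers of fragments over each stretch of the genome, without scaling for depth. The submitters' processing notes name Bowtie2 2.5.4, Picard 3.4.0 and SEACR 1.3 and the build mm10. A fragment was counted wherever coverage went up by 1. From the coverage, the mean over each promoter, gene body, flank, locus and 1-kb tile was computed and divided by the library mean. Genes are the protein-coding genes of GENCODE M21 on GRCm38.

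Log2(coverage + 0.5) was fitted over all features with limma 3.58.1 in R 4.3.3, after Python 3.11.15 (numpy 2.4.6, pandas 2.3.3, scipy 1.17.1, pysam 0.24.0, matplotlib 3.10.9), with a mean-variance trend and no block, on the 4 SOX9 libraries, or on all 8 for the controls. Genes with a mean of at least 0.25 over the SOX9 libraries, and tiles of at least 1, were tested. P-values were adjusted by Benjamini-Hochberg over all features tested, with a threshold of 0.05. The pseudocount makes log2 differences of low regions smaller than those of the coverage itself. The fit was also run on simulated data with a set spread and no difference in promoter share between libraries. That run does not show how the fit behaves on these libraries.

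All 10 members are named. Of the related lists the text names the 3 genes with the highest promoter coverage and the 2 largest differences in each direction whose groups do not overlap, and of each locus the tile with the highest mean outside the promoter. Other tiles, and the repeat in Chsy1, were chosen after their values were seen. The members and lists were chosen with earlier results of these data known. Alternatives covered scaling, pseudocounts, filters, depth, region sizes, blocks, the libraries in the fit and each library left out.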

Additional observations from a re-analysis of the deposited data

Results flagged for a closer look

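The results below are those whose difference between 1 d.p.i. and uninjured cords had opposite signs in M and F. They are given as the log2 difference in M minus that in F, with 1 library for each sex and condition. None of these differences between the sexes was tested.

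For the summed promoter coverage the value was 0.96, from a log2 ratio of 0.82 in M and -0.14 in F. At the promoter 5 of the 10 members had opposite signs, all with the M difference positive. The values were 1.96 for Bcan, 1.09 for Ncan, 1.33 for Ptprz1, 1.5 for Chst11 and 2.27 for Xylt1.

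In the gene body 6 of the 10 had opposite signs. The M difference was the positive one in Bcan (0.95), Cspg4 (0.39), Cspg5 (0.43), Chst11 (0.20) and Xylt1 (0.17), and the F difference in Ptprz1 (-0.38). In the flanks 6 had opposite signs, with the M difference positive in Bcan (0.51), Ncan (1.16) and Cspg5 (0.48) and the F difference positive in Vcan (-0.22), Ptprz1 (-0.53) and Xylt1 (-0.12). Over all promoters, the ratio of the median coverage at 1 d.p.i. to that in uninjured cords was 1.29 in M and 0.695 in F. The median promoter of the genome thus also went up in M and down in F, as did the promoters of the members listed above. The share of all genes with opposite signs was not counted, so the counts of members cannot be set against it.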

How the results depend on the processing

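The 10 members were past the adjusted threshold in 0 of 190 alternative values at the promoter, 0 of 168 in the gene body and 0 of 187 in the flanks by limma. The sign was opposite in 16, 10 and 21 of these. Counts over all features moved as follows, and the cause was not tested.

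At the promoter, where 1 gene was called, 0 were called with a trimmed mean of log ratios, a pseudocount of 2, the weaker filter, all 8 libraries or TSS ± 500 bp, 7 with medians set equal (6 higher, 1 lower) and 2 at the highest annotated start. In the flanks the 5 calls became 0 with a trimmed mean or all 8 libraries, 3 without the highest 1% of tiles or with 10 kb on each side, 8 with medians set equal, 1 without the trend or thinned to the shallowest SOX9 library, 13 with 50 kb and 15 (6 higher, 9 lower) without other coding genes. For tiles the 41 calls became 9 with a trimmed mean or a pseudocount of 2, 10 with medians set equal, 110 with a pseudocount of 0.1, 25 and 70 with a weaker and a stricter filter, 0 with all 8 libraries, without the trend or thinned, 2 in 500-bp tiles and 63 in 2-kb tiles. Against the controls, 1643 calls became 0 when thinned.

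Leaving out each library in turn gave 0 to 0 calls at the promoter, 0 to 0 in the gene body, 0 to 37 in the flanks (37 without uninjured M, 20 without uninjured F, 0 without either injured library), 0 to 0 for tiles and 0 to 2486 against the controls (0 without 1 d.p.i. F, 2486 without uninjured F). It gave a ratio of 0.867 to 1.85 for the summed promoters, 3 to 9 positive members, and 1.93% to 2.79% of high tiles, which then had to pass in 3 libraries only. The lone library of an arm was then assumed to vary like the other group. High tiles made up 5.95% at 3 times the mean (1.97% of all tiles), 0.358% at 10 times (0.236%) and 6.81% by the mean of the 4 libraries (2.33%).

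Libraries of the same letter in the 2 conditions are from different animals of the same sex. With sex as a replicate block, limma called 0 promoters, 259 gene bodies (148 higher, 111 lower), 1 flank and 8 tiles, and 0 members. Same-letter samples deviated from their group means with correlations of -0.10, -0.10 and -0.34 over promoters, gene bodies and flanks. With a crossed replicate block, chosen after seeing the data, limma called 1 promoter, 0 gene bodies, 8 flanks and 66 tiles.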

Other observations

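These genes are named after their values were seen. Limma called 6 genes elsewhere in the genome at the promoter or in the flanks, all higher at 1 d.p.i., and none was on the lists above. At the promoter this was Gm11361, with 0 and 0.896 in the uninjured M and F libraries and 5.71 and 15.6 in the injured ones (adjusted p 0.0192). In the flanks they were Psg16, Bcl3, Sgk1, Serpina3m and Cebpd. Sgk1, a kinase induced by glucocorticoids, had 1.2 (uninjured M), 0.926 (uninjured F), 3.14 (injured M) and 2.31 (injured F), with an adjusted p of 0.00467. Cebpd, a transcription factor of the acute-phase response, had 0.461 and 0.639 in the uninjured M and F libraries and 1.51 and 1.53 in the injured ones, with an adjusted p of 0.00716. The log2 differences were 3.58 for Gm11361, 1.04 for Sgk1 and 0.95 for Cebpd. Both injured libraries were above both uninjured ones in all 6 genes. These calls did not hold throughout. At the promoter limma called 0 genes with any library left out, with trimmed scaling or with a pseudocount of 2. In the flanks it called 0 without either injured library or with trimmed scaling.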
